A study of Mus musculus with 6 samples.

Results

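The myogenic regulatory factors Myod1, Myog, Myf5 and Myf6 are 4 related basic helix-loop-helix transcription factors that commit cells to skeletal muscle and drive the muscle gene programme. They pair with E proteins such as Tcf3 and bind the E-box, a short DNA element with the letters CANNTG. Lsd1 (Kdm1a) is a histone demethylase that removes methyl groups from lysines 4 and 9 of histone H3 and can act with a repressed or an active gene. Lsd1 peaks were taken around these 4 genes wherever the peak centre lay from 50 kb upstream to 10 kb downstream of the gene span in the curated RefSeq annotation of mm10. No value of the peaks other than their position was used in the choice. In all, 38 of the 95852 peaks in the 3 deposited lists lay in these windows, and overlapping peaks merged to 23 of 56729 regions.

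C2C12, a line of mouse myoblasts, was differentiated for 1 day and Lsd1-bound DNA was sequenced after immunoprecipitation (ChIP-seq). Wild-type cells were in myogenic medium with horse serum (called myogenic below), wild-type cells were in an adipogenic cocktail (adipogenic), and a stable lentiviral line overexpressing Flag-tagged LSD1 under a doxycycline-dependent promoter was treated with doxycycline in the same cocktail (LSD1(OE)). Whether the wild-type cells also received doxycycline is not given in the sources used here. Each condition had 1 ChIP and 1 input library, so that no difference between conditions has a replicate check and none was tested. Intervals of levels are exact Poisson limits at 95%, and those of ratios exact binomial limits given both tag counts, and all cover counting error only. The libraries held 46155625 (myogenic), 63915769 (adipogenic) and 55193310 (LSD1(OE)) ChIP tags after removal of duplicates, and 43426, 18893 and 33533 peaks. The peak lists carry no expression values, so neither the cell type nor the overexpression was checked against its markers.

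Each peak has a tag count and a score, which is 10 times −log10 of its Poisson p-value, with 50 as the lowest score the authors' cut-off allows. The score rises with depth and with the scaling of a library, so levels are given here as tag density, in ChIP tags per kb of peak per 1000000 ChIP tags of the library. A stretch of 1 kb at the genome-wide background needed a density of 0.910 (myogenic), 0.907 (adipogenic) or 0.888 (LSD1(OE)) to be called.

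The regions that carry the description are shown first, as the 300 bases around a summit (the highest point of a peak) on the strand of the gene. Capitals mark E-boxes (CANNTG) and the AP-1 element TGANTCA, both read on either strand. The first sequence is the Myod1 region with the highest tag density in each library, 26.1 kb upstream of the transcription start site (TSS), at the myogenic summit (chr7:46350176-46350475, plus strand of mm10). The second is the myogenic summit 10.6 kb upstream of Myod1 (chr7:46365733-46366032, plus strand), which held the most E-boxes of all summits in the windows. The third is the adipogenic summit 44.6 kb upstream of Myog (chr1:134245230-134245529, plus strand). The fourth is the LSD1(OE) summit 5.2 kb upstream of Myf6 (chr10:107499764-107500063, minus strand), where an AP-1 element and an E-box overlap. The last is the sequence of 250 bases before the Myog TSS from the RefSeq promoter table (GRCm38.p6, chr1:134289754-134290003, plus strand), which lies whole inside the myogenic promoter peak.
Myod1, 26.1 kb upstream: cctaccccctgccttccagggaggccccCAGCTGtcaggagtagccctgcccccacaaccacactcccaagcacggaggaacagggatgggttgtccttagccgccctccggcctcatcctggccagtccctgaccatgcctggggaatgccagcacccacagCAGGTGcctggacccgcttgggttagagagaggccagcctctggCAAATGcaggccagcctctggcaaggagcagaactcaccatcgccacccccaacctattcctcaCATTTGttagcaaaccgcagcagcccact
Myod1, 10.6 kb upstream: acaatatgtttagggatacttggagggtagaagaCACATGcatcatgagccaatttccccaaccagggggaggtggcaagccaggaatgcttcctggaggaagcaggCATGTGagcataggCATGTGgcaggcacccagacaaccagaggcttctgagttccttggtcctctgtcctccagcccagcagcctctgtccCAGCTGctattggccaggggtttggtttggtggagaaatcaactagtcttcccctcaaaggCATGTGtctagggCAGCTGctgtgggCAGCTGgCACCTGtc
Myog, 44.6 kb upstream: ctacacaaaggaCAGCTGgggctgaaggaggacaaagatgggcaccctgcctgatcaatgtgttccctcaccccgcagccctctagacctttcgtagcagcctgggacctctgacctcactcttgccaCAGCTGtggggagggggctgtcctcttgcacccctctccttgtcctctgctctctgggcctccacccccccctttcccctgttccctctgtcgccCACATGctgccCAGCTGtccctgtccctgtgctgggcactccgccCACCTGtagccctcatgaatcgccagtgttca
Myf6, 5.2 kb upstream: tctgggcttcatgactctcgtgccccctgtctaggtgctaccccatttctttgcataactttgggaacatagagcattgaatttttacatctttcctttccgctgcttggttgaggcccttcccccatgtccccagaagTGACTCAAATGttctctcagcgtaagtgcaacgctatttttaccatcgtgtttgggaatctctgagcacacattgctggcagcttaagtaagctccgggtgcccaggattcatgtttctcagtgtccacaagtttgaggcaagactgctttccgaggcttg
Myog promoter: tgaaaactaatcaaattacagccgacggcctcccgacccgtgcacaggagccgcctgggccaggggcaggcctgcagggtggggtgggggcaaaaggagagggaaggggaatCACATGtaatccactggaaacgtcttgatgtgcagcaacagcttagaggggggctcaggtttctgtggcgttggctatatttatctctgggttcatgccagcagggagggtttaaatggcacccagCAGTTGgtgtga

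Lsd1 peaks were found in the windows of all 4 genes in each of the 3 libraries, with 22 myogenic, 8 adipogenic and 8 LSD1(OE) peaks. The background for this is high, as 71.3% of 26180 genes had at least 1 myogenic peak in such a window, 52.4% at least 1 adipogenic and 64.4% at least 1 LSD1(OE) peak. Myog, which drives differentiation into myotubes, had 11 myogenic, 3 adipogenic and 2 LSD1(OE) peaks. Myod1, which commits cells to the muscle lineage, had 7, 2 and 3. Myf5 and Myf6 lie in tandem with their TSSs 8.59 kb apart, so that their windows overlap and hold the same 4, 3 and 3 peaks. As many myogenic peaks as at Myog, or more, were seen at 4.91% of genes, against 14.4% for Myod1 and 32.9% for Myf5 and Myf6. In the adipogenic library 19.8% of genes had as many peaks as Myog or more, and in LSD1(OE) cells 46.1%. The order of the libraries depended on the number of peaks in each list. When each list was cut to the same number of its highest-scoring peaks, the windows held 6 myogenic, 8 adipogenic and 6 LSD1(OE) peaks, and Myog 2, 3 and 1. With an FDR under 0.1% they held 7, 5 and 5, and when the ChIP tags were not scaled to the input 10, 5 and 6.

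**Figure D1:**
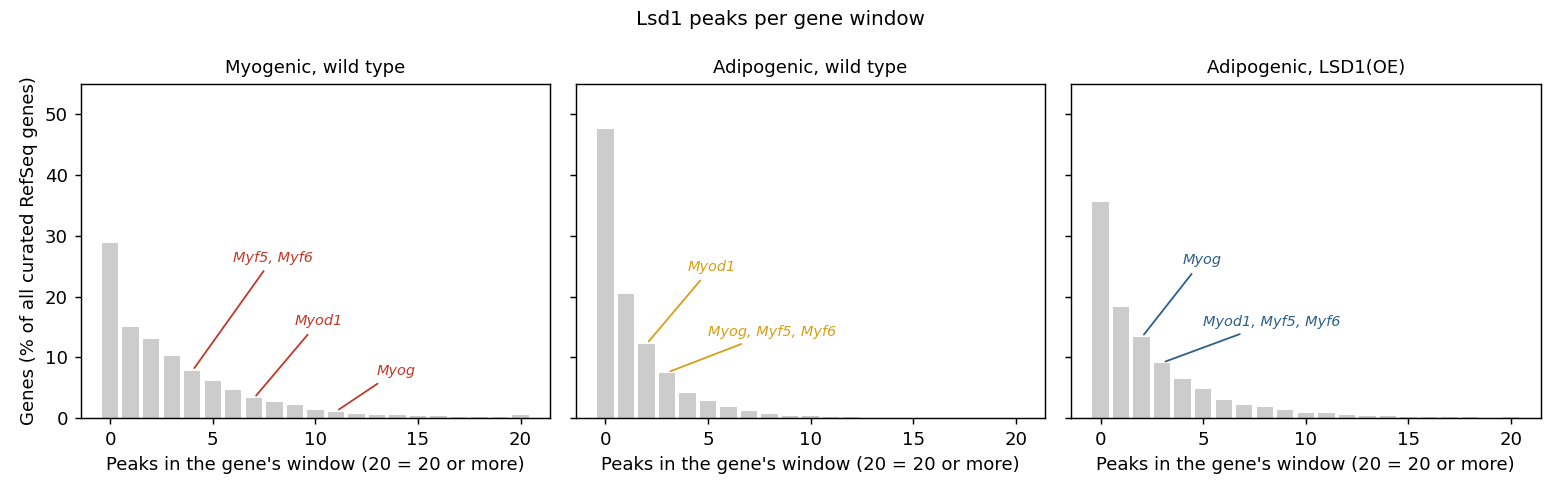
Number of Lsd1 peaks in the window of each gene (x axis, 20 standing for 20 or more) against the share of all curated RefSeq genes with that number (y axis, percent), with 1 panel per library and lines to the bars that hold the named genes. Myog lies in the tail of the myogenic panel with 11 peaks, while in the adipogenic and LSD1(OE) panels all 4 genes had 2 or 3 peaks.

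**Figure D2:**
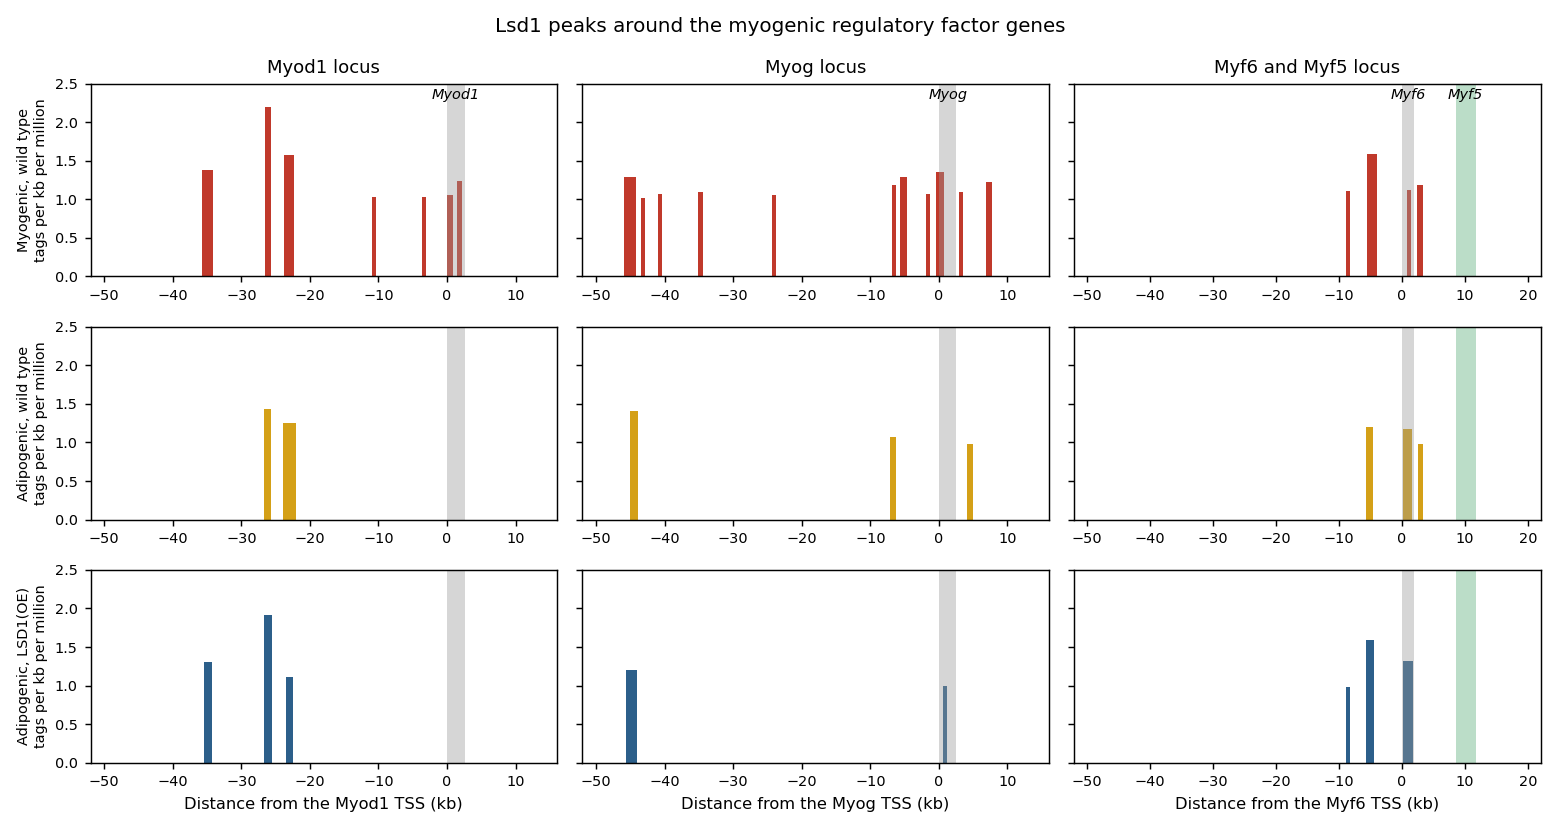
Lsd1 peaks at the Myod1, Myog and Myf6/Myf5 loci (columns) in the 3 libraries (rows), with distance from the TSS in kb along the x axis (gene direction to the right) and tag density as bar height. Bar width is peak length, grey shading is the gene named in the x axis label and green shading is Myf5, which no peak covers.

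Myod1 lies on chromosome 7 from 46376474 to 46379092 (mm10, plus strand). At Myod1 the peaks of the 3 libraries met at a pair of regions far upstream of the gene, and only the myogenic library had peaks nearer to it. Myod1 is known to be controlled by a core enhancer far upstream and a regulatory region closer to the promoter, but no enhancer annotation was used here and no region is named as either. The region 26.1 kb upstream, from 46349729 to 46351016 and intergenic, had a density of 2.19 in the myogenic library (90 tags, interval 1.76 to 2.69), 1.43 in the adipogenic (89 tags, 1.15 to 1.76) and 1.91 in LSD1(OE) cells (136 tags, 1.61 to 2.26). It was the densest peak of the windows in each library, and its 3 summits lay within 24 bp of each other in the first sequence above. Its scores were 501, 190 and 617, and 11.8%, 26.3% and 7.00% of the peaks of the respective library scored higher.

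The adipogenic density of this region was 0.652 times the myogenic (interval 0.481 to 0.884), which leaves out a ratio of 1 by counting error alone. Across the 14149 regions with a peak in both libraries the median ratio was 0.800 and 88.2% of ratios were below 1, and the Myod1 region stood at percentile 14.3 of these. The LSD1(OE) density was 1.34 times the adipogenic (1.02 to 1.77), where the median over 13053 regions was 1.09, and this ratio stood at percentile 88.9. Between LSD1(OE) and myogenic cells the ratio was 0.873 (0.664 to 1.15), next to a median of 0.879 over 18581 regions, but 1.26 (0.961 to 1.67) when tags were not divided by peak length. The adipogenic library was thus the lowest at this region, within the range that the regions of these libraries take.

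The intergenic region 23.0 kb upstream of Myod1, from 46352586 to 46354473, also had a peak in each library, with densities of 1.57 (102 tags), 1.25 (151 tags) and 1.11 (60 tags). Here LSD1(OE) cells were lowest, at 0.711 times the myogenic density (0.508 to 0.987), and the ratio of LSD1(OE) to adipogenic was 0.891 (0.649 to 1.21). The adipogenic peak was 1888 bp long and the LSD1(OE) peak 975 bp, and the summits of the 3 libraries spread over 557 bp. Not divided by length, the adipogenic tags were 1.07 times the myogenic, against 0.798 by density, and the LSD1(OE) tags were 0.492 times the myogenic (0.351 to 0.683) and 0.460 times the adipogenic (0.335 to 0.625). At the 2 regions common to all 3 libraries, the LSD1(OE) level therefore stood above the adipogenic level in one and not in the other.

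A region 34.9 kb upstream of Myod1 had a peak in myogenic cells (102 tags, density 1.39, 1.13 to 1.68) and in LSD1(OE) cells (84 tags, 1.31, 1.05 to 1.62) but not in the adipogenic list. Over the myogenic peak length of 1595 bp the adipogenic library needed 85 tags to call a peak, a density of 0.834, which lies under the lower limit of the myogenic value. At the myogenic density it would have held 141 tags, and at the median ratio of the libraries 113. This was the widest gap between a called level and the adipogenic cut-off at Myod1.

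The other 4 Myod1 regions were called in the myogenic library alone. They were centred 10.7 kb and 3.4 kb upstream, and 466 bp and 1838 bp downstream of the TSS, the latter pair in exons of Myod1 itself. They held 28, 28, 39 and 42 tags at densities of 1.02, 1.03, 1.05 and 1.23, with scores of 52.0, 52.4, 69.6 and 106. For those at 10.7 kb and 3.4 kb the adipogenic library at the same density would have held 38.8 tags, fewer than the 40 that its cut-off needed. With each score divided by the factor that scaled the ChIP library to its larger input, 3 of the 4 regions were under 50. The peak at 1838 bp had 55.7. The TSS nearest to each of the 5 upstream Myod1 regions was that of Gm45923, 1.7 kb from the centre of the peak 3.4 kb upstream.

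Myog lies on chromosome 1 from 134290004 to 134292548 (plus strand). At Myog the picture was a long series of weak myogenic peaks and few shared ones. Of 12 regions in the window, 8 were called in the myogenic library alone and 1 in the adipogenic library alone. The region shared by all libraries, 44.8 kb upstream and intergenic (134244027 to 134246048), had densities of 1.28 in myogenic (108 tags, 1.05 to 1.55), 1.402 in adipogenic (105 tags, 1.15 to 1.70) and 1.20 in LSD1(OE) cells (105 tags, 0.985 to 1.46). The 3 intervals overlap, and the adipogenic to myogenic ratio of 1.09 (0.826 to 1.44) stood at percentile 95.4 of the shared regions, whose median is 0.800. It was 0.702 when tags were not divided by length, as the myogenic peak was 1822 bp and the adipogenic 1172 bp long. This region is nearer to Adora1, an adenosine receptor gene whose TSS is 9.48 kb from the myogenic centre, than to Myog. The adipogenic and LSD1(OE) summits lay 44.6 kb upstream, in the third sequence above, and the myogenic summit 45.3 kb upstream.

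Closer to Myog, a region 6.7 kb upstream was called in the myogenic (33 tags, density 1.19) and the adipogenic library (64 tags, density 1.07), the density being higher in myogenic and the tags per library size in adipogenic cells. A region 5.2 kb upstream was called in myogenic cells only and was the strongest of the peaks found in that library alone. It held 61 tags at a density of 1.29 (0.986 to 1.66) and had a score of 161. The adipogenic cut-off there was 60 tags or a density of 0.916, and the LSD1(OE) cut-off 50 tags or a density of 0.884. Both cut-offs lie under the lower limit of the myogenic density.

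The promoter of Myog, which myogenic factors and Mef2 proteins are known to activate at the onset of differentiation, had a myogenic peak centred 162 bp downstream of the TSS with 64 tags and a density of 1.35 (1.04 to 1.72). One of lower density, centred 1.6 kb upstream, held 31 tags at 1.07. The local background behind the score was 1.28 times the genome-wide level at the first peak. Over local background, the scaled tags were 1.97 times at the first peak and 2.00 times at the peak 1.6 kb upstream. In LSD1(OE) cells a peak of 34 tags and a density of 0.995 (0.689 to 1.39) was centred 923 bp downstream, in an intron. It shares only its edge with the myogenic peak, and the 2 summits lay 908 bp apart. The LSD1(OE) to myogenic ratio was 0.738 (0.472 to 1.14) by density and 0.444 (0.284 to 0.684) when not divided by length. No adipogenic peak was centred within 2000 bp of the TSS. Over the length of the myogenic peak 60 tags were needed there at the genome-wide background, and the myogenic density would have given 88.6. The nearest adipogenic peak was centred 4.5 kb downstream, with 56 tags, a density of 0.980 and a score of 58.5, and it was the region called in that library alone.

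The other myogenic peaks of the Myog window were centred 43.1, 40.7, 34.8 and 24.0 kb upstream, and 3.2 and 7.3 kb downstream, the last in an exon of the neighbouring gene Ppfia4. Their densities ran from 1.02 to 1.22 and their scores from 50.7 to 117. Apart from the one in Ppfia4, all were under 50 when the score was divided by the scaling factor of the ChIP tags. The TSS nearest to those 43.1, 40.7 and 34.8 kb upstream was that of Adora1, 11.4, 13.8 and 19.8 kb away. For the peak 24.0 kb upstream it was that of Myoparr, 23.8 kb away. The Myoparr TSS was also the nearest to the regions 6.7, 5.2 and 1.6 kb upstream.

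Myf5, an early determination factor, and Myf6 (MRF4), which acts mainly in differentiation and in mature fibres, share their peaks. Both are on the minus strand of chromosome 10, Myf5 from 107482908 to 107486134 and Myf6 from 107492848 to 107494723. All 4 regions lay upstream of Myf5, and the nearest peak centre to its TSS was 5.6 kb away, in the adipogenic library. The region 5.0 kb upstream of Myf6, which is 13.6 kb upstream of Myf5 and intergenic (107498723 to 107500446), was the strongest of the locus in the myogenic and LSD1(OE) libraries. Its density was 1.59 in myogenic cells (118 tags, 1.32 to 1.90), 1.20 in adipogenic cells (88 tags, 0.959 to 1.47) and 1.59 in LSD1(OE) cells (109 tags, 1.30 to 1.91). The adipogenic value was the lowest, at 0.752 times the myogenic (0.564 to 0.999), and LSD1(OE) stood at 1.33 times the adipogenic (0.993 to 1.78). These ratios were at percentiles 37.0 and 87.9 of the shared regions.

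The other region in all 3 libraries lay in the Myf6 gene, 979 bp downstream of the TSS. It had densities of 1.12 in myogenic (38 tags, 0.796 to 1.54), 1.17 in adipogenic (111 tags, 0.963 to 1.41) and 1.31 in LSD1(OE) cells (114 tags, 1.08 to 1.58), and the intervals overlap. The peak was 732 bp long in the myogenic library, 1484 bp in the adipogenic and 1573 bp in LSD1(OE) cells, so that the tag counts differ far more than the densities. Not divided by length, the adipogenic tags were 2.11 times the myogenic (1.45 to 3.13) and the LSD1(OE) tags 2.51 times (1.72 to 3.72), against 1.04 and 1.17 by density. Its scores were 82.3, 161 and 293, and those of the Myog promoter 111 in myogenic and 55.2 in LSD1(OE) cells. Scores rise with depth and scaling, so their order between libraries is not read as a difference in level. A region 8.5 kb upstream of Myf6 was called in myogenic (37 tags, 1.11) and LSD1(OE) cells (33 tags, 0.979), and one 2.9 kb downstream in myogenic (49 tags, 1.19) and adipogenic cells (49 tags, 0.980).

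**Figure D3:**
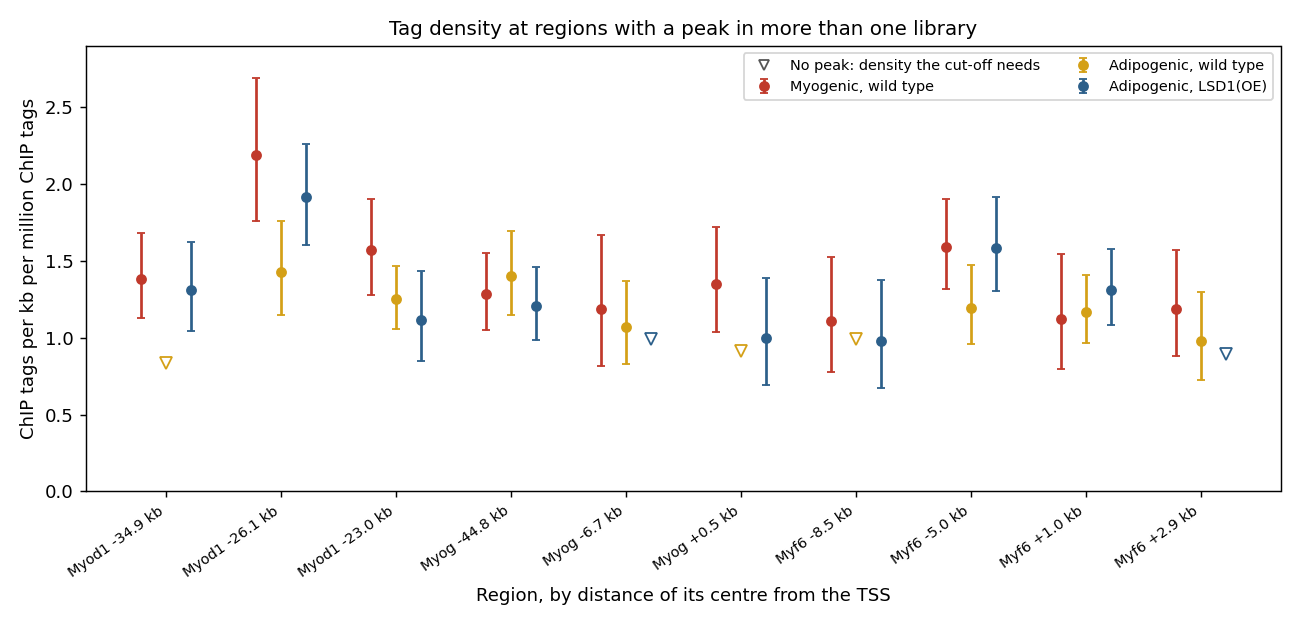
Tag density (y axis, ChIP tags per kb per 1000000 ChIP tags) at the 10 regions with a peak in more than 1 library, named by distance from the TSS (x axis). Points are values with exact 95% Poisson intervals, and open triangles give the density that the cut-off needed in a library without a peak. The intervals of the 3 libraries overlap at most regions, and the adipogenic point lies below both others at 26.1 kb upstream of Myod1 and 5.0 kb upstream of Myf6.

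Taking the promoter as 2000 bp either side of a TSS, Myod1 had a promoter peak in the myogenic library only, Myog in the myogenic and LSD1(OE) libraries, Myf6 in all 3 and Myf5 in none. Counting every gene with a TSS in reach of a peak, 46.8% of all genes had a myogenic, 27% an adipogenic and 37.3% an LSD1(OE) promoter peak. The members' 3, 1 and 2 of 4 genes are too few to be read against these shares. The myogenic peak of Myf6 was centred 1.1 kb from the TSS and was not counted within 1000 bp. At equal peak numbers none of the members had a myogenic promoter peak, while Myf6 alone had one in each of the other libraries.

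Of the 23 regions, 5 had a peak in all 3 libraries, 3 in myogenic and LSD1(OE) cells, 2 in myogenic and adipogenic cells, 12 in myogenic cells only and 1 in adipogenic cells only. Over all 56729 regions the shares were 20.6% for all 3 libraries, 12.2% for myogenic and LSD1(OE), 4.38% for myogenic and adipogenic, 35.9% for myogenic only and 3.70% for adipogenic only. The members' shares were 21.7%, 13.0%, 8.70%, 52.2% and 4.35%. No region of the members was called in LSD1(OE) cells without a myogenic peak, whereas 23.2% of all regions had an LSD1(OE) and no myogenic peak. Adipogenic peaks overlapped a myogenic peak in 7 of 8 cases (87.5%, against 81.5% of all adipogenic peaks) and LSD1(OE) peaks in 8 of 8 (against 60.6%). Both LSD1(OE) results rest on merging by an overlap of 1 bp and on the cut-off of the lists. With summits at most 500 bp apart, the LSD1(OE) peaks at the Myog promoter and 44.8 kb upstream of Myog had no myogenic partner. With an FDR under 0.1%, the region in the Myf6 gene kept its LSD1(OE) peak but lost its myogenic peak (FDR of 0.19%). The same happened there at equal peak numbers. For these settings no share over all regions was computed. In the other direction, 7 of 22 myogenic peaks overlapped an adipogenic peak (31.8%, against 36.7%) and 8 of 22 an LSD1(OE) peak (36.4%, against 47.2%).

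The regions found in myogenic cells only were the weak ones. Their myogenic scores had a median of 60.2 (n = 12, 50.7 to 161), against 111 (n = 5, 77.5 to 299.8) with 1 other library and 367 (n = 5, 82.3 to 501) with all 3. The same order holds over the genome, with medians of 72.1 for myogenic only and 346 for all 3. Of the 12 regions, 9 were under 50 when the score was divided by the scaling factor of the ChIP tags, and 1 was left at equal peak numbers. Of the 15 regions with a myogenic and no adipogenic peak, 11 would have passed the adipogenic cut-off at the myogenic density, but only 4 at the median adipogenic to myogenic ratio of 0.800. Those 4 were the regions 34.9 kb upstream of Myod1 and, at Myog, 5.2 kb upstream, at the promoter and 7.3 kb downstream. The cut-off assumes the genome-wide background, but the myogenic peak at the Myog promoter had a local background of 1.28 times that level. A like rise in the adipogenic input would raise the 60 tags needed there, next to 70.9 tags at the median ratio. This was not tested. For LSD1(OE) cells 14 of 14 would have passed at the myogenic density and 7 at the median ratio of 0.879. With 1 library a condition, the lower density of the adipogenic library at shared regions and the medium cannot be told apart.

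**Figure D4:**
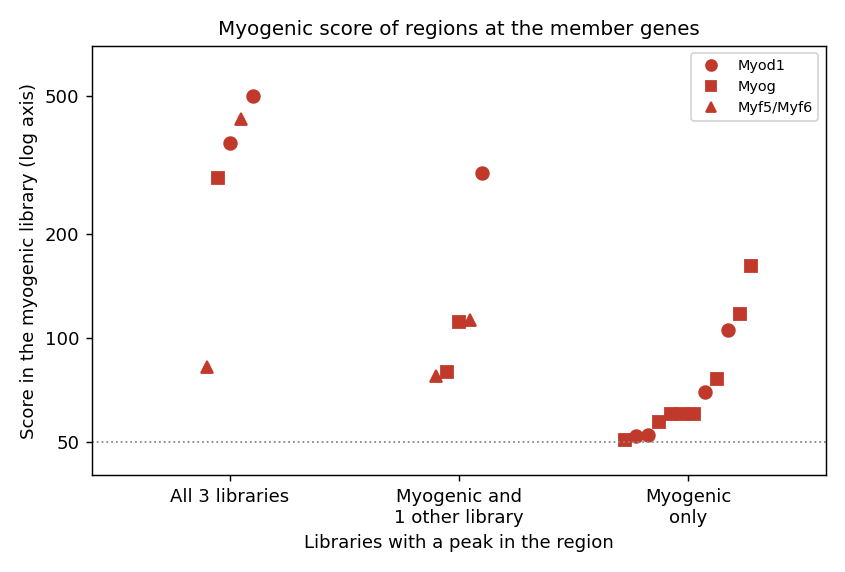
Score of each myogenic peak in the windows (y axis, log axis) by the libraries with a peak in the same region (x axis), with the symbol giving the locus and the dotted line the lowest score allowed. Regions found in myogenic cells only lie between 50.7 and 161, and 4 of the 5 regions in all 3 libraries lie from 289.8 to 501.

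The share of summits with an E-box was near that of all peaks. Within 300 bases around the summit, 17 of 22 myogenic peaks held at least 1 CANNTG (77.3%, against 79.7% of all myogenic summits), and 6 held CAGCTG (27.3%, against 25.8%). The form CAGGTG or CACCTG, on either strand, was in 8 (36.4%, against 22.7%), and TGANTCA in 2 (9.09%, against 18.9%). CAGCTG and CAGGTG are also counted as CANNTG. The sequence 10.6 kb upstream of Myod1 held 8 CANNTG of which 3 were CAGCTG, and 0.157% of all myogenic summits had 8 or more. It was also one of the weakest peaks, with 28 tags. The summit 26.1 kb upstream of Myod1 held 4, a number reached by 11.4% of myogenic summits, and the adipogenic summit 44.6 kb upstream of Myog held 5, 3 of them CAGCTG, with 5 or more at 5.10% of adipogenic summits. At 5.0 kb upstream of Myf6 the myogenic summit held none, while the adipogenic and LSD1(OE) summits, within 20 bp of each other, both held TGACTCAAATG, in which TGACTCA and CAAATG share letters. The 250 bases before the Myog TSS held 2 E-boxes, and 31.8% of 32851 RefSeq promoters held 2 or more. Of the 4 genes, Myog and Myf5 were matched in the RefSeq promoter table, and Myod1 and Myf6 were not. A match of letters is a description and does not show that a factor was bound.

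The genes that work with the members were read from lists of E protein partners, upstream activators, inhibitors and targets. All 3 partners, Tcf3, Tcf4 and Tcf12, had a promoter peak in every library, as did 23.5% of all genes. Tcf3, which encodes the E proteins E12 and E47, had a density of 1.86 at its strongest myogenic promoter peak, 1.19 in adipogenic and 1.34 in LSD1(OE) cells. The corresponding densities were 1.50, 1.07 and 1.24 at Tcf4, and 1.64, 0.985 and 0.992 at Tcf12. Myogenic was the highest at each, which is the common order in these libraries, since 88.2% of adipogenic and 74.4% of LSD1(OE) to myogenic ratios over all shared regions were below 1.

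Of 7 upstream activators, 4 had a myogenic, 2 an adipogenic and 3 an LSD1(OE) promoter peak, which lies near the 46.8%, 27% and 37.3% of all genes. Mef2d and Mef2a, Mef2 factors that act with the members, had one in all libraries, with densities of 1.77, 1.17 and 1.54 at Mef2d and of 2.11, 1.18 and 1.58 at Mef2a. Pax3, Pax7 and Mef2c had none in any library.

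Of 14 inhibitors, 11 had a promoter peak in each library and 10 had one in all 3, beside 46.8%, 27% and 37.3% of all genes in the single libraries and 23.5% in all 3. Id1, Id2, Id3 and Id4, which bind E proteins and keep them from DNA, were all among them, with myogenic densities of 1.71, 1.53, 2.19 and 1.56, adipogenic densities of 1.25, 1.46, 1.28 and 0.965, and LSD1(OE) densities of 1.68, 2.08, 1.51 and 1.26. Msc, Hey1, Hes1, Snai2, Bhlhe40 and Bhlhe41 were the others, and the Notch effector Hes1 had the highest myogenic score, 2179, at a density of 1.93. Snai1 had an adipogenic peak only, with 329 tags and a density of 2.33, while Twist1 and Mdfi had none.

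Of 15 targets, 9 had a myogenic, 7 an adipogenic and 7 an LSD1(OE) promoter peak, with 5 in all 3 libraries and 4 in none, beside 46.8%, 27% and 37.3% of all genes in the single libraries and 23.5% in all 3. The 5 were Mymx, which drives myoblast fusion, the acetylcholine receptor subunit genes Chrna1 and Chrng, the cell cycle inhibitor gene Cdkn1a and Mybph. Cdkn1a had the highest myogenic score, 1545, and densities of 2.20, 1.44 and 1.82. Those of Chrng were 1.54, 1.04 and 1.48, and those of Chrna1 1.45, 1.20 and 1.26. Cdh15 had promoter peaks in LSD1(OE) cells only, the strongest with 453 tags and a density of 1.82. Mymk had one in the adipogenic library only, with 72 tags and a density of 1.05. The muscle creatine kinase gene Ckm, Tnni1, Actc1 and Mef2c were the 4 without a peak.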

How the data were processed

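Lsd1 ChIP-seq and input libraries of C2C12 cells on day 1 were assigned to 3 conditions by the sample labels. Single reads of 50 bp were mapped by the authors to mm10 with Bowtie (Bowtie2 in the processing notes), who called peaks with MACS 1.4.2 (per the file headers) for each ChIP against its own input at p 1e-05, scaling the smaller library up to the larger. In the deposited lists, the tag count of a peak is without normalization, and the deposited score is 10 times −log10 of its p-value. The deposited fold enrichment is a ratio over the local background and is not on one scale between the libraries, so it was not used. The deposited FDR is in percent and was below 1% for every peak.

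The members and lists were chosen with earlier results of these data known. Gene spans, TSSs and sequences were taken from RefSeq on GRCm38.p6 (mm10) and 26180 genes were counted. A peak belonged to a window by its centre, and peaks sharing at least 1 bp were merged into regions. Densities are tags per kb and per 1000000 ChIP tags, over the peak length that MACS gave in each library. Where a region had several peaks of a library, tags and lengths were summed. Ratios have exact conditional binomial limits at 95%. A region without a peak was given the fewest tags that pass p 1e-05 at the genome-wide background of its library, over the myogenic peak length. The comparison of these limits with the myogenic density and with the median ratio was chosen after seeing the data. With 1 library per condition no test was run. Named genes were the 4 members and, from each list, genes with a promoter peak in every library and the 3 with the highest myogenic scores. One gene that this rule names is not reported here. Genes of the lists without a peak, and Snai1, Cdh15 and Mymk, were named after their values were seen. The scripts were tested on simulated data and used Python 3.11.15, NumPy 2.4.6, pandas 2.3.3 and SciPy 1.17.1. Alternatives were a stricter FDR, a higher score, equal peak numbers, scores divided by the scaling factor, other windows, other promoter sizes, another definition of shared regions and tags not divided by length. The scaling factor is the one that MACS applied to the ChIP tags. Dividing by it approximates a score without scaling, which was not recomputed.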

Additional observations from a re-analysis of the deposited data

How the results depend on the processing

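With an FDR under 0.1% the windows held 7 myogenic, 5 adipogenic and 5 LSD1(OE) peaks, and with a score of at least 100 they held 10, 5 and 6. With scores divided by the scaling factor of the ChIP tags they held 10, 5 and 6. At equal peak numbers they held 6, 8 and 6. With an FDR under 0.1%, 3 regions were in all 3 libraries, 2 in myogenic cells only and 5 in myogenic cells with any other library. In this setting 1 region, in the Myf6 gene, was without a myogenic peak and held an adipogenic and an LSD1(OE) peak. At equal peak numbers 1 region was in myogenic cells only, 5 were in myogenic cells with any other library and 4 were without a myogenic peak. With summits at most 500 bp apart 3 were without a myogenic peak. Those at the Myog promoter and 44.8 kb upstream of Myog held an LSD1(OE) peak. Members with a promoter peak numbered 0 in myogenic and 1 in LSD1(OE) cells at equal peak numbers, and 2 in adipogenic cells within 5000 bp. Upstream activators with an adipogenic promoter peak numbered 1 within 1000 bp. Counting peaks by any overlap or by summit left the 22, 8 and 8 window peaks as they were, and a window from 100 kb upstream to 20 kb downstream gave 29, 10 and 10.

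When tags per 1000000 were not divided by peak length, 5 log2 density ratios changed sign. Adipogenic over myogenic became 0.10 at 23.0 kb upstream of Myod1, -0.51 at 44.8 kb upstream of Myog and 0.49 at 6.7 kb upstream of Myog. LSD1(OE) over myogenic became 0.34 at 26.1 kb upstream of Myod1, and LSD1(OE) over adipogenic became 0.21 at 44.8 kb upstream of Myog. Without a change of sign, 7 ratios left their interval. Adipogenic over myogenic became -0.89 at 5.0 kb upstream of Myf6 and 1.08 in the Myf6 gene. LSD1(OE) over myogenic became -0.54 at 34.9 kb and -1.02 at 23.0 kb upstream of Myod1, -1.17 at the Myog promoter and 1.33 in the Myf6 gene, and LSD1(OE) over adipogenic -1.12 at 23.0 kb upstream of Myod1. The construction of this measure shows the cause, as the peak lengths differ between the libraries. No paired analysis was possible because each condition has 1 ChIP library. The cut-off limits what a missing peak says. At the genome-wide background a stretch of 1 kb needed 42, 58 and 49 tags to be called in the myogenic, adipogenic and LSD1(OE) libraries. As densities these are 0.910, 0.907 and 0.888, so relative to library size the cut-offs were nearly the same.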
